A study of Mus musculus with 8 samples.

Results

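The regions described here are the H3K9ac regions that lie beside a gene with 3 or more of them. H3K9ac is histone H3 acetylated at lysine 9, and in epithelial cells of the mouse ileum it was mapped by sequencing immunoprecipitated chromatin. A region belongs to the set when the gene name that the authors' table gives it, that of the nearest transcription start site (TSS), stands in 3 or more rows. Of 11251 regions with 9757 gene names, 706 regions of 213 genes met this rule. Of the genes, 168 had 3 regions, 35 had 4, 4 had 5, 4 had 6, Tex14 had 8 and Nedd4l had 10. By comparison, 994 genes had 2 regions, and 7 regions had no gene name.

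Wild-type C57Bl/6 mice gave the cells, taken from the terminal ileum, and received vehicle or 150 mM butyrate, the latter for 7 days. Each group had 3 immunoprecipitated libraries, and an input library of each group was not analysed here. The labels give neither the age of the mice nor the route of dosing, and do not say whether each library came from its own mouse. The p-values therefore measure the spread between these libraries, which may be technical. Levels are the authors' RPKM, reads per kb of region, scaled to library size, and 1255251 to 1828591 reads per library lay in the regions. Of 14 epithelial markers, 13 had a region, against 3 of 9 lymphocyte, 1 of 7 stromal, 1 of 3 endothelial, 0 of 5 myeloid and 0 of 4 smooth muscle markers. The summed level of the lymphocyte markers was 4.52 to 4.89 RPKM in the vehicle libraries and 3.77 to 5.27 RPKM in the butyrate libraries, and that of the epithelial markers 74.9 to 79.4 and 70.2 to 77.3 RPKM. None of the markers of other cell types is among the 213 genes. In tissue of this kind, fewer cells that carry the mark and less of it per cell cannot be told apart.

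Acetylation of H3K9 is laid down by acetyltransferases such as GCN5 and PCAF and removed by histone deacetylases, which butyrate inhibits. The mark is strongest in the first nucleosomes after an active TSS and is also found, more weakly, at active enhancers. A gene with several regions can therefore carry it at alternative promoters, at enhancers within its introns or upstream, or in neighbouring pieces of a single acetylated stretch. Many mammalian promoters lie in CpG islands, stretches that keep the CG dinucleotides lost elsewhere in the genome, whereas most distal enhancers are poor in CG.

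Both kinds of sequence occur within single genes of the set. Chd7, which encodes a chromodomain remodeller, had 4 regions over 265.776 kb of chromosome 4, and 200 bases near the centre of each are shown because they span the sequence types of the whole set. The bases are from the mouse reference GRCm38 (mm10) on the plus strand, the gene's own, with each CG in capitals. The windows lie at chr4:8647336-8647535 (in the region centred 42970 bp upstream of the TSS), chr4:8691068-8691267 (in the region centred 728 bp downstream of it), chr4:8721219-8721418 (in an intron) and chr4:8911436-8911635 (beyond the gene).
Chd7 upstream: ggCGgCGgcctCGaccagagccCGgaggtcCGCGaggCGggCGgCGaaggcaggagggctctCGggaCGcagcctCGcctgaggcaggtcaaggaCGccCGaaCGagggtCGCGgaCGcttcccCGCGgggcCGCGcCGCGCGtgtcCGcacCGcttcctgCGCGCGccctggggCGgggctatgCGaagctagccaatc
Chd7 TSS region: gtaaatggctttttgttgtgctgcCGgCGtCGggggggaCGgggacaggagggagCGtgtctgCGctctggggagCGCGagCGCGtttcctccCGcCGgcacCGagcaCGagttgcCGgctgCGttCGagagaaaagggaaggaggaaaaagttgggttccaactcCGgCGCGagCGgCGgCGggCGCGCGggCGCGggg
Chd7 intron: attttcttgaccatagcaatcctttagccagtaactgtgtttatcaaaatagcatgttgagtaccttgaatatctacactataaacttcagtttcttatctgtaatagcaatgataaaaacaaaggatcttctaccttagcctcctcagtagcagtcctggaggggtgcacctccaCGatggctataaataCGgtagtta
Chd7 downstream: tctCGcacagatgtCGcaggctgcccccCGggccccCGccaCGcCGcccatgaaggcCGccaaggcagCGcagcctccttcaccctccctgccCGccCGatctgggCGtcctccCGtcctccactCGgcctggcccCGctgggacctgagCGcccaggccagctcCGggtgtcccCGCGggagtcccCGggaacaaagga

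The upstream window held 32 CG, the TSS window 28, the window beyond the gene 19 and the intron window 2. Over the whole regions, the ratio of observed to expected CG was 0.97 upstream, 1.08 at the TSS, 0.63 beyond the gene and 0.17 in the intron. The 3 CG-rich regions were also those with the higher H3K9ac level. The TSS region stood at 5.26, 5.42 and 4.87 RPKM in the vehicle libraries and at 6.15, 4.87 and 4.82 RPKM in the butyrate libraries. The intron region stood at 0.85, 1.34 and 0.87 RPKM with vehicle and at 0.99, 0.78 and 0.53 RPKM with butyrate. The upstream region (2.96, 3.96 and 2.98 against 3.49, 3.21 and 3.55 RPKM) and the one beyond the gene (3.26, 3.12 and 3.97 against 3.38, 2.99 and 3.55 RPKM) lay between them in all 6 libraries. In none of the 4 regions were the vehicle and butyrate libraries apart.

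The regions of Usp2, which encodes a ubiquitin-specific protease under circadian control, are shown because 1 of them had the smallest p of all member regions in the comparison with butyrate. Their windows, again on the plus strand with CG in capitals, lie at chr9:44067232-44067431 (in the region over the upstream TSS), chr9:44085229-44085428 (in the region over the downstream TSS) and chr9:44086610-44086809 (in the intron region, centred 1789 bp from the TSS).
Usp2 upstream TSS region: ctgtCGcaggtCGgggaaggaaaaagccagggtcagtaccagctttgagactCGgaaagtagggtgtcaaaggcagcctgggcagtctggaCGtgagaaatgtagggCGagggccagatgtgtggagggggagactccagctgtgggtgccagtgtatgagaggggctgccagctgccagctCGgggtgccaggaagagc
Usp2 downstream TSS region: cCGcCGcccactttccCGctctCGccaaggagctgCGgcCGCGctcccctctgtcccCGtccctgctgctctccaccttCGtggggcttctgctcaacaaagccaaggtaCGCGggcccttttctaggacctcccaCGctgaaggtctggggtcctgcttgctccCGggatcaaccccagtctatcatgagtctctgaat
Usp2 intron: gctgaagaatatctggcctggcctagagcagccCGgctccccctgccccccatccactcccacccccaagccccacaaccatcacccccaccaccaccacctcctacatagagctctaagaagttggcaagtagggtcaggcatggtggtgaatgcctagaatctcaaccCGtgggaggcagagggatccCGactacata

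These windows held 6, 13 and 3 CG, while their G and C content was similar at 61%, 63.5% and 59.5%. The ratio of observed to expected CG over the regions was 0.63, 0.62 and 0.13. In the reference, 40.2% of the bases of the intron region are masked as repeats, against 2.51% and 4.06% of the other regions of Usp2. Over all 706 regions the median masked share was 13.4%.

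The set differed from the other 10545 regions in where it lay. Only 250 of the 706 regions (35.4%) were centred within 1 kb of the nearest TSS, against 79.2% of the others, and 282 (39.9%) lay beyond 5 kb, against 7.33%. In the authors' annotation, 418 regions (59.2%) were intronic, 149 (21.1%) intergenic and 95 (13.5%) at a promoter. The intergenic share of the other regions was 5.62% and their promoter share 28.6%. An annotated start of the named gene (GENCODE) lay inside 267 regions (37.8%), against 74.1% of the others. Regions of genes with 2 regions lay between on each of these measures. Of them, 52.4% were within 1 kb of a TSS and 24.1% beyond 5 kb. A further count gave 16.2% intergenic, 20.6% at a promoter and 48.4% over a start of the named gene. The shift away from the TSS was thus not particular to the set, and how much of it follows from the rule was not tested. By position, 531 regions lay within the gene they are named after, 133 upstream of it and 42 downstream. Since the name is that of the nearest TSS, it need not be the gene that a region acts on. In GENCODE, 20 regions covered a transcript start of another protein-coding gene, which may be any of its annotated starts. Among them were a region named Ier2 over a start of Cacna1a and one named Scamp1 over a start of Lhfpl2. Others were one named Mrpl48 over a start of Rab6a and one named Umps over a start of Kalrn.

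Member regions were shorter and weaker than the rest. Their median length was 777.5 bp against 1442 bp, and 222 (31.4%) were exactly 500 bp long, the shortest length in the table, against 14.3%. The median region held 29.2 reads per library, against 102 for the others. Regions of genes with 2 regions again lay between, with a median of 935 bp, 47 reads and 2.17 RPKM, and 26.8% were 500 bp long. The median level was 1.66 to 1.86 RPKM over the 6 libraries, against 3.10 to 3.15 RPKM for the others. It was lower in 6 of 6 libraries (two-sided exact sign-flip permutation p = 0.03125, the smallest that 6 libraries can give). All libraries measure the same regions, so this p speaks of repeatability between libraries and not of variation between regions. Neighbouring regions of 1 gene were 13 to 706823 bp apart, with a median gap of 6488 bp. In 121 of 493 pairs of neighbours the gap was under 1 kb, against 4.73% of the gaps between all regions in the table. The first are gaps within 1 gene by the rule of the set, while the second run between neighbours of any gene. The difference therefore follows in part from the rule. The genes spanned a median of 29.6 kb from their first to their last region. The longest spans were those of Fhit (709.199 kb), Foxp1 (496.766 kb), Utrn (321.874 kb), Nedd4l (281.365 kb) and Aopep (276.911 kb).

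In most genes, but far from all, the region nearest the TSS had the highest H3K9ac level. Over the 213 genes the median level of these regions was 2.97 to 3.15 RPKM in the 6 libraries, against 1.40 to 1.57 RPKM for the other 493 regions. It was higher in 6 of 6 libraries (two-sided exact sign-flip permutation p = 0.03125, again the smallest possible). Here too the p speaks of repeatability between libraries and not of variation between genes. The nearest region had the highest level in 137 genes and the most reads in 124 (58.2%). The authors' distances run to the same start for all regions of a gene in 98 genes, and to different starts in the others. A few bp can then decide which region is the nearest, as in Cflar (664 against 674 bp). The nearest region's share of the gene's reads ranged from 2.13% to 97.3% with a median of 58.3%. The highest region of a gene stood a median of 3.08-fold above its lowest, by more than 5-fold in 30 genes and less than 2-fold in 37. The range ran from 1.08-fold to 10.5-fold, the latter in the non-coding gene 1810026B05Rik.

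Ywhaz, Clec2h and Atl2 had the largest share of their reads in the region nearest the TSS. In Ywhaz, which encodes the 14-3-3 zeta adaptor protein, it was 97.3%: this region stood at 9.12, 8.33 and 8.32 RPKM with vehicle and at 8.44, 8.22 and 8.35 RPKM with butyrate. Its 2 upstream regions, 46741 and 84228 bp away, had mean levels of 1.23 and 1.18 RPKM. In Clec2h, which encodes a C-type lectin, the share was 95.8%, and in Atl2, which encodes a GTPase that shapes the endoplasmic reticulum, it was 95.6%. The lowest shares were those of Cflar, Pls1 and Rps6ka1, in which another region carried nearly all of the reads. In Cflar, which encodes the apoptosis regulator c-FLIP, 2.13% of the reads lay in the nearest region, with a mean level of 0.89 RPKM, and the region upstream of it, which covers starts of the gene, had 5.45 RPKM. The share was 2.22% in Pls1, which encodes the brush border protein plastin 1, and 2.34% in the kinase gene Rps6ka1. In Gtf2a1, which encodes a subunit of the general transcription factor TFIIA, the strongest region exceeded the nearest 6.27-fold, and in Utrn, which encodes utrophin, 6.61-fold over all libraries. In Utrn the nearest region itself averaged 1.19 RPKM with vehicle and 0.141 RPKM with butyrate, against 4.72 and 4.08 RPKM in the strongest. The strongest region covers an annotated start of Utrn, and the nearest covers none.

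**Figure D1:**
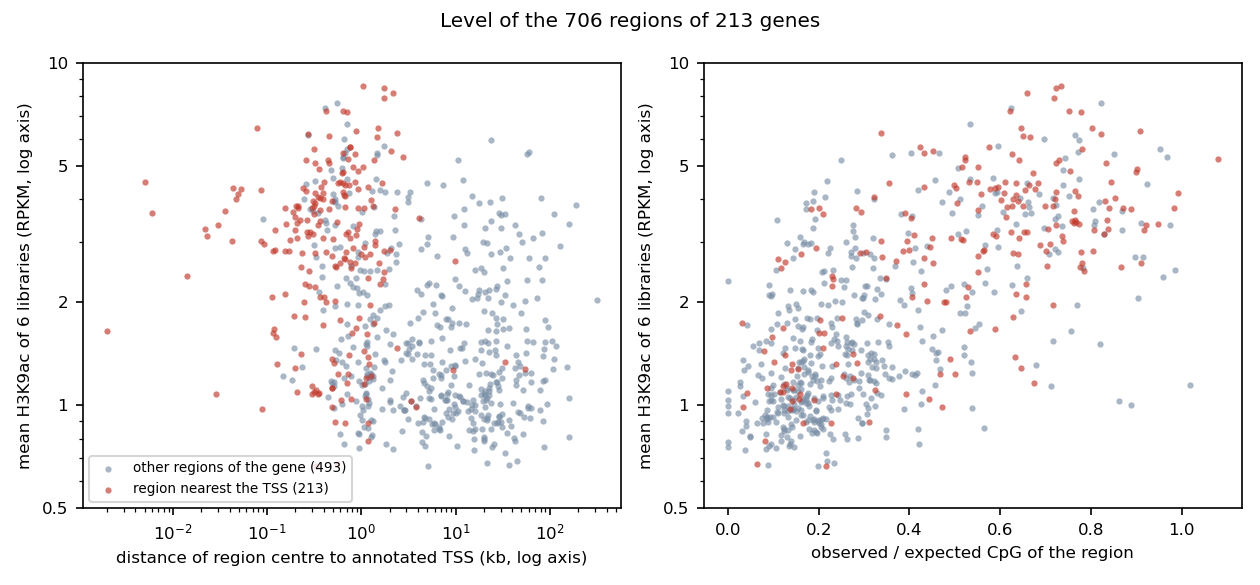
Mean H3K9ac level over the 6 libraries (RPKM, log axis) of each of the 706 regions, against its distance to the nearest TSS (kb, log axis) and against the ratio of observed to expected CG. Red points are the 213 regions nearest the TSS of their gene (median 3.08 RPKM) and blue-grey points the other 493 regions (median 1.40 RPKM), and the level is higher close to a TSS and at a high CG ratio.

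The level followed base composition as well as distance, as the plot of level against distance and CG ratio shows. Regions nearest the TSS had a median CG ratio of 0.552 and a G and C content of 53.3%, and the other regions 0.237 and 47.0%. Across the 706 regions of 213 genes, the Spearman correlation of mean level was 0.75 with G and C content and 0.67 with the CG ratio. The points share 6 libraries and many share a gene, and the effect of G and C content on sequencing was not tested. Among the 400 regions over no annotated start the coefficients were 0.60 and 0.38. In 159 of 213 genes (74.6%) the region with the highest level also had the highest CG ratio, and in 132 (62.0%) the lowest region had the lowest.

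A few distal regions reached the level of promoters. Of 216 regions that lay beyond 5 kb and over no start, 9 had a mean level of at least 3 RPKM. They were named 1810026B05Rik (60080 bp upstream, 5.50 RPKM), Tnks1bp1 (10689 bp, intronic, 5.21 RPKM), Casz1 (17672 bp upstream, 3.91 RPKM), Chd7 (the upstream and downstream regions above, 3.36 and 3.38 RPKM), Mgat3, Dlgap4, Agrn and Nol4l. Tnks1bp1 encodes a tankyrase-binding protein, and its intronic region stood at 5.0, 5.41 and 4.80 RPKM with vehicle and at 5.12, 5.44 and 5.52 RPKM with butyrate. It exceeded the region over the start of its own gene, with a mean of 3.57 RPKM. Upstream of Casz1, a zinc finger transcription factor gene, the region stood at 3.03, 5.30 and 4.18 RPKM with vehicle and at 3.85, 3.75 and 3.37 RPKM with butyrate. The groups overlapped in both. The median CG ratio of these 9 regions was 0.25 and their median G and C content 53.8%, against 0.18 and 45.5% for the rest of the 216.

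Short motifs of known factors were searched on both strands in the central 300 bases of every region. None of the 7 motifs contains another, and a match is only the presence of these letters. The GC box GGGCGG, bound by SP factors, occurred in 29.6% of the nearest regions, 11.4% of the other member regions and 34.5% of all regions in the table. The CACCC box CACCC, bound by KLF factors, occurred in 64.8%, 50.3% and 59.8%. The GATA site AGATAA was found in 9.39% of the nearest, 15.6% of the other and 9.86% of all regions. By distance its share of the members was 9.6% within 1 kb of a TSS, 19.1% from 5 to 50 kb and 5.77% (3 of 52) beyond 50 kb. Over all regions in the table the shares were 8.05%, 15.4% and 19.7%, with no fall beyond 50 kb. The CDX site TTTATG occurred in 6.57%, 14.6% and 9.49%. The AP-1 site TGANTCA (7.51%, 6.09% and 5.80%), the HNF1 half-site GTTAAT (7.51%, 8.72% and 6.07%) and the HNF4 site CAAAGTCCA or CAAAGTTCA (0.94%, 1.01% and 0.89%) showed smaller differences. None of these shares was tested.

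In 68 genes, 2 or more regions covered an annotated start of the gene. Whether these starts are used as alternative promoters in this tissue was not tested. Of the other genes, 119 had 1 such region and 26 had none. The region at the first start in the gene's direction had the higher mean level in 54 of the 68 genes (79.4%), and was higher in each of the 6 libraries in 40. The medians were 3.60 RPKM at the first and 2.28 RPKM at the last start, a median of 24.9 kb apart. Pik3r1, which encodes the regulatory p85 subunit of phosphoinositide 3-kinase, had the largest ratio between the starts. The region at its first start stood at 6.42, 6.66 and 6.11 RPKM with vehicle and at 5.75, 4.89 and 6.10 RPKM with butyrate. The region at its last start stood at 1.40, 1.57 and 0.87 against 1.44, 0.22 and 0.44 RPKM. All 6 values of the first start lay above all 6 of the last. The first start also led in Ptprj, a receptor tyrosine phosphatase gene (mean 7.64 against 1.32 RPKM), in Nedd4l, which encodes a ubiquitin ligase for sodium channels (6.45 against 1.73 RPKM), in Xpnpep1, which encodes an aminopeptidase (6.10 against 2.10 RPKM), and in Trak1, which encodes a mitochondrial transport adaptor (5.42 against 2.12 RPKM).

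The last start was the higher one in all 6 libraries in 7 genes. In Usp2 the upstream start stood at 2.20, 3.19 and 2.82 RPKM with vehicle and at 2.44, 2.88 and 3.23 RPKM with butyrate. The downstream start stood at 7.14, 8.32 and 7.90 RPKM and at 6.83, 7.94 and 6.32 RPKM, above the upstream start in every library. Rara, which encodes the retinoic acid receptor alpha, showed the same order (3.57 against 5.22 RPKM). The other genes were Tbc1d1, a Rab GTPase regulator of glucose uptake (2.74 against 4.15 RPKM), Zmynd8, an acetyl-histone reader (2.22 against 3.77 RPKM), Fryl (1.97 against 3.07 RPKM), Gsdme, a gasdermin (1.97 against 2.80 RPKM), and Pls1 (2.47 against 2.80 RPKM).

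**Figure D2:**
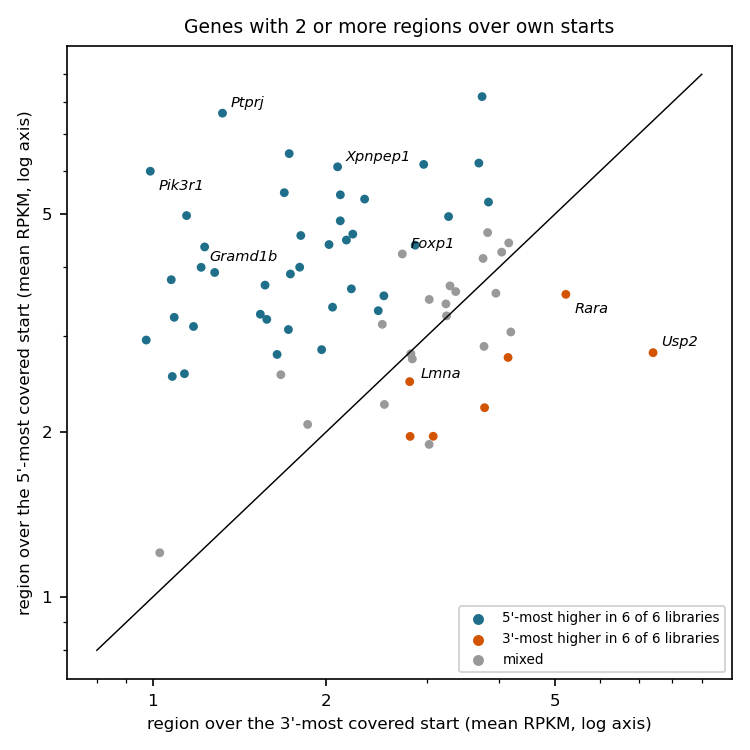
Mean level over the 6 libraries (RPKM, log axes) at the first (5'-most, vertical axis) and the last (3'-most, horizontal axis) annotated start that a region covers, 1 point for each of 68 genes. Colours mark genes in which the first start is higher in all 6 libraries (40), the last start is higher in all 6 (7) or neither, and the diagonal marks equal levels.

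Among genes with the most regions, the layout ranged from 1 strong region at the TSS with many weak ones to no region over a start. Nedd4l had 1 region of 6.64, 6.30 and 6.78 RPKM with vehicle and 6.96, 6.01 and 5.99 RPKM with butyrate at its TSS. Its other 9 regions had means of 0.67 to 1.73 RPKM. Tex14, which encodes an intercellular bridge protein of germ cells, had 8 intronic regions of 0.83 to 1.41 RPKM and none over a start of the gene. Rara had 6 regions, of which 4 exceeded 3 RPKM. Its strongest region, 443 bp after a start, stood at 4.48, 4.73 and 5.38 RPKM with vehicle and at 5.19, 5.15 and 6.42 RPKM with butyrate, with overlapping groups. Foxp1, a forkhead repressor gene, had 3 regions over annotated starts among its 5 regions, with 71.2% of the reads in 1 of them. Muc3, which encodes an intestinal membrane mucin, had its strongest region (3.93, 3.72 and 4.52 against 3.35, 4.64 and 4.14 RPKM) 3124 bp from the annotated TSS, where 3.18% of its reads lay in the region nearest the TSS. Plekha7, Lpin2 and the non-coding gene A630001O12Rik had 6 regions each, and Trak1 and Ano6 had 5 each.

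No member region differed between butyrate and vehicle past the threshold. Of 706 regions, 588 passed the filter of a mean level of 1 RPKM and 118 did not. In the limma fit of log2(RPKM + 1) across all 10529 regions that passed, 0 members were called at a Benjamini-Hochberg adjusted p under 0.05 (background over all regions 0%), and their smallest adjusted p was 0.486. Unadjusted, 49 of the 588 (8.33%) had p under 0.05, 17 higher and 32 lower with butyrate, against 7.27% of all regions tested. Voom on the recovered reads called 0 members against 0.057% of all regions. It gave 64 members (10.9%) an unadjusted p under 0.05, against 8.22% of all regions. The median log2 fold change of the members was -0.02, against 0.00 for all regions, and the median unadjusted 95% interval of a region reached 0.33 to either side.

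Counting over all 706 members, the 3 butyrate libraries lay below the 3 vehicle libraries in 73 (10.3%, background 7.35%) and above them in 45 (6.37%, background 6.83%). In the other 588 the groups overlapped. The size of a difference went with the number of reads. Under 25 reads per library, 121 of 329 regions (36.8%) had group means more than 1.5-fold apart, against 10 of 187 (5.35%) with 25 to 100 reads and 0 of 190 above 100 reads. The same limits gave 33.9%, 2.93% and 0.036% over all regions in the table. Of the 25 member regions with at least 50% masked repeat bases, 21 had under 25 reads.

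**Figure D3:**
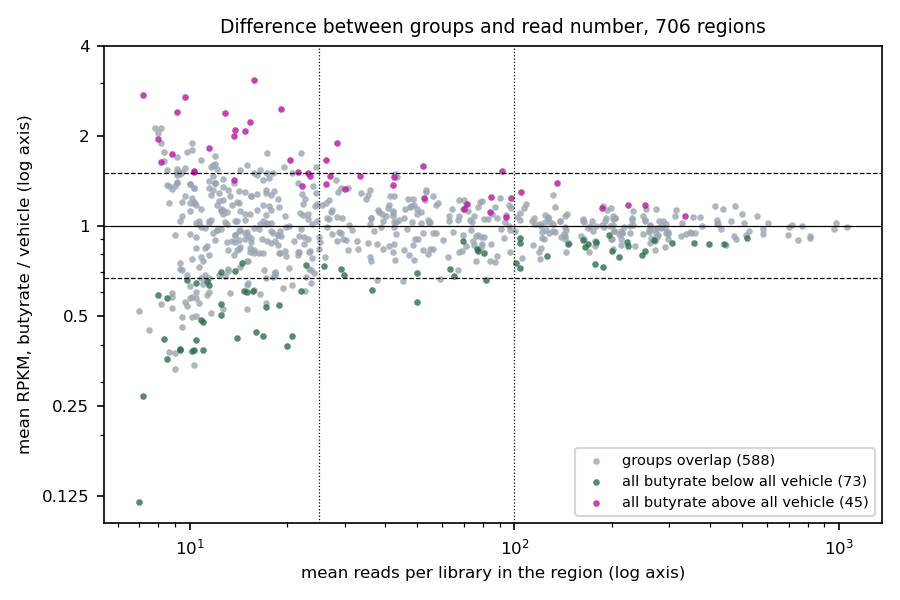
Ratio of mean RPKM with butyrate to that with vehicle (log axis) against mean reads per library (log axis) for the 706 member regions. Colours show whether the 3 butyrate libraries lie below (73) or above (45) all 3 vehicle libraries or overlap with them (588), dotted lines stand at 25 and 100 reads and dashed lines at a 1.5-fold difference, which no region above 100 reads exceeds.

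The authors' deposited table called 3 of the 706 regions at its FDR of 0.1, against 0.249% of all regions. The region of Utrn 328 bp after a start, at chr10:12861157-12861657, had a log2 fold change of -3.09 and an FDR of 0.00528 in the authors' deposited table. It stood at 1.16, 1.34 and 1.06 RPKM with vehicle and at 0, 0.34 and 0.09 RPKM with butyrate, which is 15, 12 and 11 reads against 0, 3 and 1. The groups were apart, at a mean of 7 reads per library, and the region was under the filter of the limma fit. The strongest region of Utrn, 7320 bp upstream of the authors' nearest TSS, covers the first annotated start (GENCODE) that any region of the gene covers. It stood at 4.98, 4.85 and 4.32 against 4.25, 4.19 and 3.80 RPKM. It too was lower in all butyrate libraries, by far less.

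The second call was a region named after the microRNA gene Mir5119, at chr11:98262591-98263724. It covers an annotated transcript start of Cdk12, a kinase of RNA polymerase II. It stood at 0.34, 0.40 and 0.26 RPKM with vehicle and at 0.91, 1.18 and 0.94 RPKM with butyrate, from 6 to 10 and from 23 to 24 reads. The groups were apart, and the authors' deposited table gave it a log2 fold change of 1.59 and an FDR of 0.0176. It was also under the filter. The region 32037 bp away under the same name stood at 2.60, 2.68 and 2.24 against 3.23, 2.42 and 1.99 RPKM, with overlapping groups.

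The third was the intron region of Usp2 whose sequence is shown above, at chr9:44086459-44086959. It stood at 2.71, 2.58 and 2.90 RPKM with vehicle and at 0.99, 1.34 and 1.15 RPKM with butyrate, or 35, 23 and 30 against 11, 12 and 13 reads. Every butyrate library was below every vehicle library, with means of 2.73 ± 0.16 and 1.16 ± 0.17 RPKM (SD, n = 3 each). The log2 fold change in the limma fit was -0.79 ± 0.14 (SE) with an adjusted p of 0.486, and with voom the adjusted p was 0.23. In the authors' deposited table its log2 fold change was -1.24 and its FDR 0.0627. The 2 regions over starts of the gene had overlapping groups, as their values above show. Relative to the region at the upstream TSS, the intron region was lower by a log2 difference of -0.84 ± 0.21 (SE, limma adjusted p 0.282, the smallest of all ratios of the members).

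**Figure D4:**
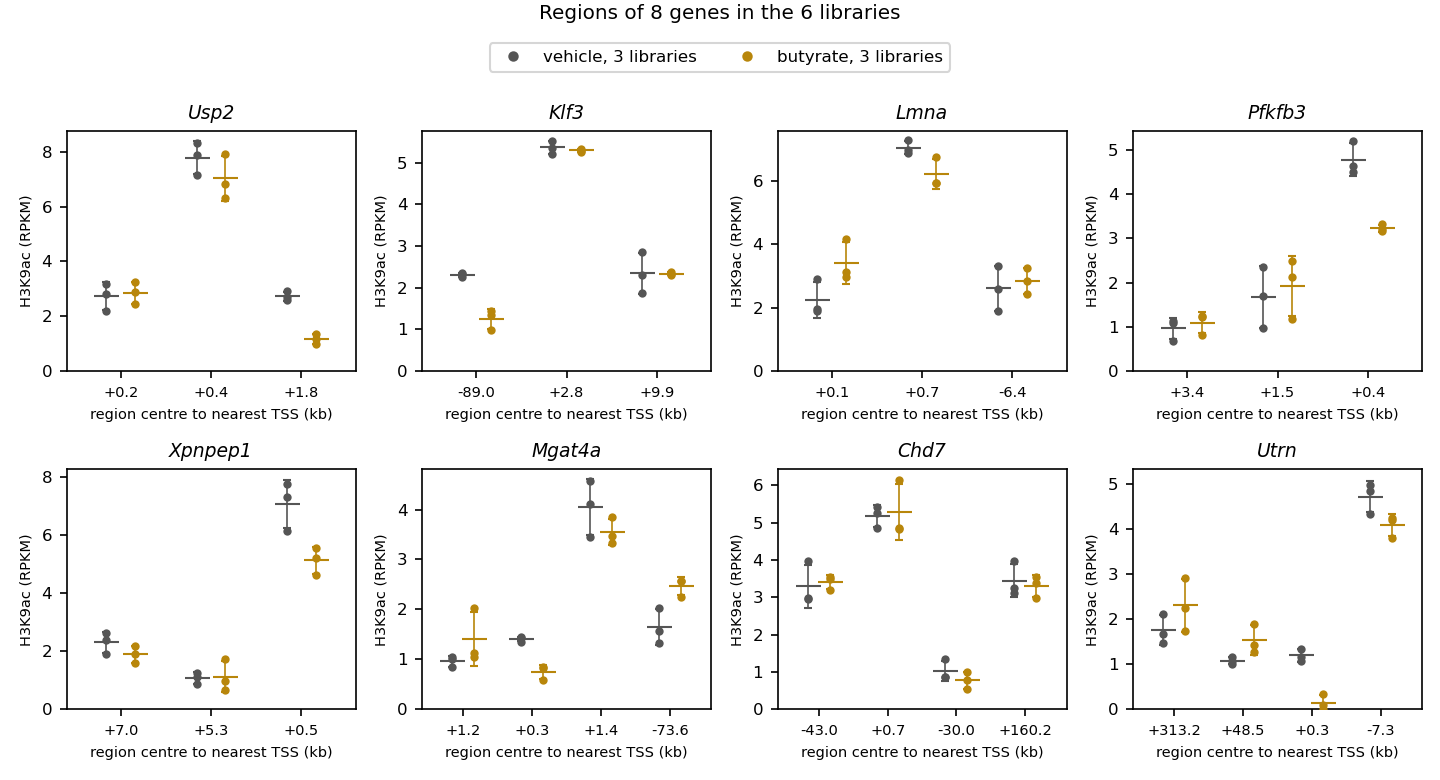
Level in each library (points, RPKM), group mean (bar) and SD (error bar, n = 3) of every region of Usp2, Klf3, Lmna, Pfkfb3, Xpnpep1, Mgat4a, Chd7 and Utrn, ordered along the genome and labelled by distance to the nearest TSS (kb). In Usp2 and Klf3 1 region separates the groups while the others overlap, and in Chd7 all 4 overlap.

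Of the regions lower with butyrate, those with the smallest p after Usp2 were in Pfkfb3, Gse1, Xpnpep1, Klf3 and Sertad2. None passed the limma threshold. In Pfkfb3, which encodes a bifunctional enzyme that drives glycolysis, the region 393 bp after the TSS stood at 5.19, 4.49 and 4.64 RPKM with vehicle and at 3.32, 3.16 and 3.21 RPKM with butyrate. The groups were apart, with a log2 fold change of -0.45 ± 0.10 (SE, limma adjusted p 0.486). Its regions at 1464 and 3360 bp overlapped between groups, at 1.71, 2.35 and 0.97 against 1.17, 2.12 and 2.49 RPKM for the first of them. In Xpnpep1 the region at the first start stood at 7.76, 6.16 and 7.31 against 5.55, 4.61 and 5.22 RPKM, again apart (log2 fold change -0.40 ± 0.09 SE, limma adjusted p 0.492).

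In Klf3, a Krüppel-like repressor gene, the region with the smallest p lay far from the promoter and held a mean of under 25 reads per library. The intergenic region 89043 bp upstream, at chr5:64714230-64714730, stood at 2.25, 2.35 and 2.32 RPKM with vehicle and at 1.44, 1.34 and 0.98 RPKM with butyrate (log2 fold change -0.56 ± 0.15 SE, limma adjusted p 0.492). The region nearest the TSS, at 5.21, 5.52 and 5.36 against 5.25, 5.33 and 5.29 RPKM, and the region 9942 bp into the gene, at 1.86, 2.85 and 2.31 against 2.33, 2.30 and 2.37 RPKM, overlapped. Gse1, which encodes a subunit of a histone deacetylase complex, had a lower region near its end. It was centred 417 bp after the authors' nearest TSS, at 4.57, 3.36 and 4.74 against 2.43, 2.79 and 2.49 RPKM. The groups were apart there (-0.54 ± 0.12 SE, limma adjusted p 0.486), while its region 527 bp before a TSS, at 4.09, 4.13 and 4.12 against 3.97, 2.72 and 4.45 RPKM, overlapped. The Gse1 region nearest a TSS, 198 bp before it, had a log2 fold change of -0.14. In Sertad2, a transcriptional coregulator gene, the promoter region stood at 3.31, 4.84 and 4.26 against 2.90, 2.21 and 3.05 RPKM, also apart.

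Of the regions higher with butyrate, those with the smallest p were in Mllt3, Myo18a, Mro, Lmna, Sec16b and Agap3, and none passed the limma threshold. Mllt3, which encodes a reader of acetylated histones in the super elongation complex, had a region 360 bp before a TSS at 1.16, 1.34 and 2.03 RPKM with vehicle and 2.88, 2.01 and 3.02 RPKM with butyrate. The groups overlapped by a small margin (0.54 ± 0.17 SE, limma adjusted p 0.572). In Lmna, which encodes the nuclear lamins A and C, the region 116 bp after a TSS stood at 2.89, 1.94 and 1.90 against 2.95, 4.17 and 3.11 RPKM, with the groups apart. The region 702 bp after its own nearest TSS stood at 6.87, 6.98 and 7.28 against 5.93, 5.94 and 6.76 RPKM, apart in the opposite direction. Sec16b, which encodes a protein of endoplasmic reticulum exit sites, stood at 2.60, 2.38 and 2.25 against 3.49, 3.67 and 2.86 RPKM 816 bp after its TSS, apart (0.34 ± 0.12 SE, limma adjusted p 0.572). Intronic regions of Myo18a, an unconventional myosin gene (1.09, 0.90 and 0.58 against 1.62, 2.23 and 1.51 RPKM), and Agap3, a GTPase-activating protein gene (0.70, 0.45 and 1.06 against 1.17, 2.57 and 1.51 RPKM), were also apart. A region of Mro, 524 bp after its TSS, stood at 1.42, 1.97 and 1.16 against 2.88, 2.59 and 2.06 RPKM. The regions of Mllt3, Myo18a and Agap3 held a mean of under 25 reads per library.

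The fold changes of regions of 1 gene were compared with each other, although none was called and most lay within their interval. The log2 fold change of a region and that of the region nearest the TSS of its gene had a Pearson correlation of 0.029 over 367 pairs in 194 genes, and 182 pairs (49.6%) had the same sign. The pairs share libraries, and several share a gene. With differences of this size relative to their error, the values do not show whether regions of a gene change together. Neighbours under 1 kb apart had the same sign in 43 of 88 tested pairs, and those 10 to 100 kb apart in 74 of 131. Of the 213 genes, 18 had every region higher with butyrate, 30 every region lower and 165 a mixture. In 117 genes (54.9%) no region had its groups apart, and 11 genes (5.16%) had regions apart in both directions. Of single regions, 16.7% of the members and 14.2% of all in the table had their groups apart. With several regions per gene, the counts by gene are therefore description only.

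**Figure D5:**
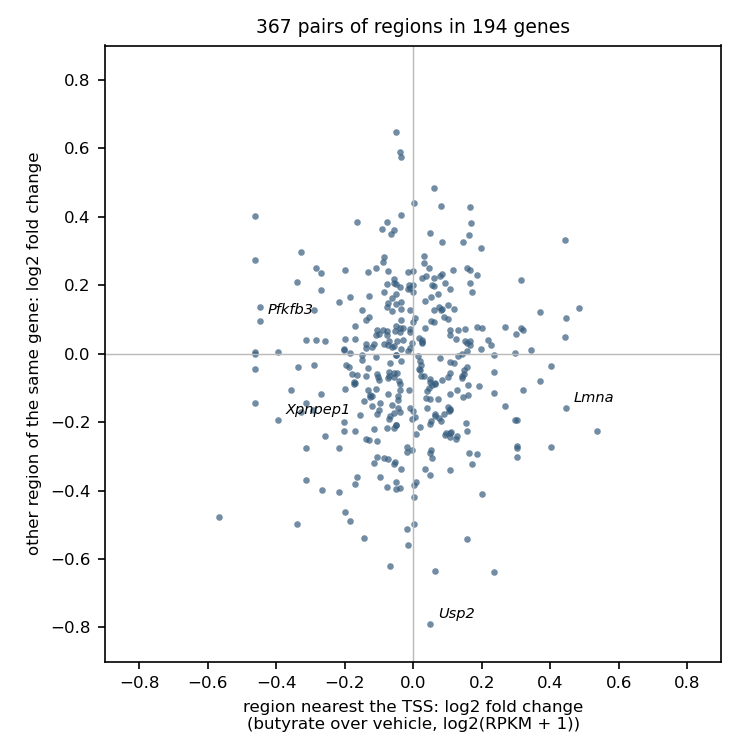
Log2 fold change, butyrate over vehicle on the log2(RPKM + 1) scale, of each further region (vertical axis) against that of the region nearest the TSS of the same gene (horizontal axis), for 367 pairs in 194 genes. Points lie in all 4 quadrants, with the same sign in 182 pairs.

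The change of a region relative to the one nearest the TSS was tested over all genes with 2 or more regions. In this limma fit of 1070 ratios, 0 of the members' 367 were called (background 0%), with 33 (8.99%) at an unadjusted p under 0.05, 15 higher and 18 lower, against 8.79% of all ratios. The median 95% interval of a ratio reached 0.46 on the log2 scale to either side. After Usp2, the smallest p values were found in Lmna and Mgat4a. In Lmna the region at 702 bp was lower relative to the nearest one by a log2 difference of -0.61 ± 0.18 (SE, limma adjusted p 0.379). Mgat4a, which encodes an N-glycan branching enzyme, had 4 regions of differing behaviour. The region 350 bp after a TSS stood at 1.44, 1.42 and 1.35 RPKM with vehicle and at 0.84, 0.82 and 0.59 RPKM with butyrate, and the region 73556 bp upstream at 1.32, 1.57 and 2.03 against 2.25, 2.57 and 2.58 RPKM. Their groups were apart in opposite directions, and the upstream region gained 0.86 ± 0.25 (SE, limma adjusted p 0.379) relative to the nearest. The strongest region of Mgat4a, at 4.11, 4.57 and 3.46 against 3.84, 3.34 and 3.46 RPKM, overlapped.

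Other ratios with a small p combined differences of either sign. In Degs2, a sphingolipid desaturase gene, the region 9227 bp from the TSS stood at 1.74, 1.52 and 0.93 against 2.16, 2.05 and 2.06 RPKM and the nearest at 4.76, 4.63 and 4.90 against 4.54, 3.55 and 4.39 RPKM. These were apart in opposite directions. In Sec31a, which encodes a coat protein of secretory vesicles, a region 1123 bp from a TSS stood at 0.87, 1.88 and 1.90 against 0.61, 0.44 and 0.80 RPKM, apart, while the promoter of 2.75, 2.47 and 2.47 against 2.63, 2.27 and 2.76 RPKM overlapped. Gramd3 had 1 region over a start at 2.90, 3.45 and 2.33 against 2.36, 2.01 and 2.23 RPKM. Another stood at 1.32, 1.18 and 1.38 against 1.96, 1.75 and 2.42 RPKM, and only this second one was apart. In Ralgds, a Ral GTPase exchange factor gene, both regions over starts overlapped between the groups.

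Summed over all regions of a gene, the level differed past the threshold in none of the 212 genes tested. The limma fit on 9430 gene sums called 0 (background 0%), with a smallest adjusted p of 0.566 among the members and 6 (2.83%) at an unadjusted p under 0.05, 1 higher and 5 lower, against 7.13% of all genes. Voom on the reads called 0 members against 0.0636% of all genes, with 27 (12.7%) at an unadjusted p under 0.05, against 8.19%. The sums of the 3 butyrate libraries lay below those of the 3 vehicle libraries in 27 of 213 genes (12.7%, background 7.04%) and above them in 10 (4.69%, background 6.5%). Xpnpep1 had the smallest p, with 4.17, 3.86 and 4.25 RPKM over its regions with vehicle and 3.23, 2.96 and 3.14 RPKM with butyrate. Its groups were apart (-0.31 ± 0.09 SE, limma adjusted p 0.566, voom adjusted p 0.121). Prpsap1, which encodes a regulator of nucleotide precursor synthesis, stood at 3.56, 3.43 and 3.98 against 2.65, 2.57 and 3.08 RPKM, and the non-coding gene Gm10416 at 3.08, 2.75 and 2.78 against 2.14, 2.37 and 2.24 RPKM, both apart. A strong region of Gm10416 lies over an annotated start of 4930522L14Rik. Sec16b had the smallest p among the higher sums, at 1.90, 1.69 and 1.70 against 2.34, 2.53 and 2.21 RPKM, and its groups were apart too.

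Over the whole set, the share of reads was nearly the same in both groups. The members held 4.38%, 4.48% and 4.48% of all reads in regions with vehicle and 4.33%, 4.34% and 4.37% with butyrate. The butyrate libraries were all lower, with a difference of -0.101 percentage points (means 4.45 ± 0.056% and 4.34 ± 0.020%, SD, n = 3, two-sided exact permutation p = 0.1, the smallest that 3 against 3 allows). Among genes with 4 or more regions the difference was 0.00147 percentage points, with butyrate higher. The region nearest the TSS took 54.2%, 53.7% and 53.7% of the members' reads with vehicle and 54.6%, 53.6% and 54.9% with butyrate. These groups overlapped (53.9 ± 0.25% and 54.4 ± 0.66%, SD, n = 3, two-sided exact permutation p = 0.4).

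Gene groups were compared by counts, with 0 regions called by limma in each. Among intestinal epithelial transcription factors the 5 member genes Klf3, Irf2, Hes1, Ehf and Prdm1 had 15 tested regions. With butyrate 5 were higher and 10 lower, and the median log2 fold change was -0.08. Hes1, the Notch target that represses secretory fate, carried H3K9ac on both sides of its short gene. The region 4943 bp after the TSS stood at 4.86, 4.53 and 4.83 RPKM with vehicle and at 4.30, 4.06 and 4.12 RPKM with butyrate. It was the strongest of its 3 regions, and its groups were apart (-0.15 ± 0.09 SE, limma adjusted p 0.722). Irf2, an interferon regulatory factor gene, had a promoter with a mean of 6.09 RPKM and 2 intronic regions of 1.11 and 1.19 RPKM.

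Of the 15 tested regions of the nuclear receptor genes Rara, Nr3c1, Nr2f2 and Nr1h4, 11 were higher and 4 lower, with a median of 0.04. All 6 regions of Rara were among the higher ones. Nr3c1, the glucocorticoid receptor gene, had its promoter at 3.76, 4.19 and 3.70 against 4.16, 3.72 and 4.15 RPKM, overlapping. The promoter of Nr2f2, which encodes COUP-TFII, stood at 3.78, 3.39 and 3.42 against 3.07, 3.34 and 3.21 RPKM, apart by a small margin. Among histone and chromatin regulators, 13 of 21 regions in 7 genes were higher and 8 lower (median 0.05). Zmiz1, a SUMO ligase and coactivator gene, carried 8.59 RPKM at its start and a further region of 4.04 RPKM 80764 bp upstream. Kdm7a, a histone demethylase gene, had 6.32 RPKM at its start. No region of either gene had its groups apart.

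In the circadian clock list Usp2, Arntl and Per1 had 4 regions higher and 5 lower, and the sums of all 3 genes were lower. Arntl, which encodes the activator BMAL1, had its promoter at 2.93, 2.90 and 2.55 RPKM with vehicle and at 2.41, 2.16 and 2.33 RPKM with butyrate, apart (-0.20 ± 0.11 SE, limma adjusted p 0.725). Per1, a repressor of the same loop, stood at 1.55, 1.70 and 1.78 against 1.80, 2.23 and 2.91 RPKM 421 bp after its TSS, apart upwards. Its stronger region 2337 bp upstream, at 2.01, 3.31 and 3.36 against 2.29, 2.35 and 2.44 RPKM, overlapped. The time of day of tissue collection is not given in the labels.

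Signalling genes were few. All 6 tested regions of Tgif1, a repressor in TGF-beta signalling, and Ptch1, the Hedgehog receptor, were lower (median -0.12), with p over 0.05 in each. In the list of EGF receptor, MAP kinase and Hippo signalling, 5 regions of Pik3r1, Vgll4 and Grb2 were higher and 5 lower (median 0.03). The region 18792 bp upstream of Grb2, which encodes an adaptor of receptor tyrosine kinases, stood at 1.48, 2.05 and 1.00 against 0.64, 0.98 and 0.28 RPKM. Its groups were apart by a narrow margin (-0.62 ± 0.23 SE, limma adjusted p 0.596), and its promoter, at 4.92, 4.56 and 4.48 against 4.40, 4.50 and 4.73 RPKM, overlapped. Of the early response genes Ier2, Bcl3 and Relb, 3 regions were higher and 5 lower. The promoter of Bcl3, an atypical inhibitor of NF-kappaB, stood at 5.95, 5.70 and 5.68 against 5.50, 4.87 and 5.14 RPKM, apart (-0.14 ± 0.08 SE, limma adjusted p 0.729).

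In Plekha7, an adherens junction gene, an intronic region 19054 bp from the TSS stood at 0.47, 1.34 and 0.87 RPKM with vehicle and at 1.71, 2.01 and 1.60 RPKM with butyrate. Its groups were apart. The region 713 bp upstream of a TSS stood at 1.47, 1.23 and 1.26 against 0.81, 0.89 and 0.80 RPKM, apart in the opposite direction, and the groups of the promoter overlapped. Krt8, the epithelial keratin gene, carried 6.26 RPKM at its strongest region, with overlapping groups. Of the lipid and fuel metabolism genes Lpin2, Pfkfb3 and Pkm, 6 regions were higher and 3 lower (median 0.08), while 1 of the gene sums was higher and 2 were lower. Lpin2, a phosphatidate phosphatase gene, had its promoter at 3.02, 3.17 and 3.12 against 3.19, 3.24 and 3.56 RPKM, apart by a small margin, and Pkm, which encodes pyruvate kinase, had 2.53 RPKM at its start with overlapping groups.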

How the data were processed

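H3K9ac chromatin immunoprecipitation libraries (3 vehicle, 3 butyrate) were sequenced as 100 bp paired reads, per the labels' protocols. The submitters' processing notes name mm10, STAR, Picard, HOMER and edgeR with no version or role. How regions were called, merged and counted, and from which strand or fragment, is not given in the sources used here. The deposited table gives RPKM per library and region, and the authors' mean CPM, log2 fold change, p-value and FDR, per the file headers. Columns name a group and a running number, so libraries were matched to groups only. RPKM values times region length were whole multiples of 1 read for 100% of values (tolerance 0.01 reads), which gave effective library sizes of 17846924 to 25805595 reads.

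From these, limma 3.58.1 (R 4.3.3, trend and robust) was fitted to log2(RPKM + 1) of regions with a mean of at least 1 RPKM. The added constant makes fold changes of weak regions smaller than those of the RPKM itself. The same fit was made for the log2 difference between each region and the region of its gene nearest the TSS (by the authors' distances), and for the reads of all regions of a gene over their summed length. P-values were Benjamini-Hochberg adjusted over all features, with a threshold of 0.05. Voom on the recovered reads was the alternative count-based fit. Values per library were compared with two-sided exact permutation tests. The fits were tested on data simulated with 2-fold changes in regions of at least 100 reads. This does not show how well changes in weaker regions are found. Coordinates are those of the deposited table. Bases, G and C content, the CG ratio (observed CG over that expected from the C and G content) and motifs were read from the GRCm38 genome of RefSeq with pysam 0.24.0, and starts from GENCODE M21. By symbol, 703 of 706 regions matched a GENCODE gene. Sequence windows of 200 bases were the ones nearest the region centre that hold no annotated untranslated exon.

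Members and gene lists were chosen with earlier results of these data known. Regions named are those of genes with the most regions, the longest spans, the most extreme share in the region nearest the TSS, up to 3 genes per list, those with the smallest p in each test and those called by the authors. Distal regions of at least 3 RPKM and genes with several starts were chosen after their values were seen, as was Chd7 for its sequences. Some results of 2 of the lists are not reported here. Alternatives are given in the closing section.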

Additional observations from a re-analysis of the deposited data

How the results depend on the processing

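The members' counts of called regions, ratios and gene sums stayed at 0 under every filter, pseudocount, scaling and read-based fit run. They also stayed at 0 when each library was left out in turn (0 to 0). The looser threshold of 0.1 was applied only to the main fits of regions and ratios, where it called 0 members. It was not applied to gene sums or to the other fits, and some of these came under it. The members' smallest adjusted p was 0.0631 for gene sums in the read-based fit limited to 25 or more reads. For ratios without the filter it was 0.0695 (limma). The read-based fits limited to 25 or more reads and the voom-weighted ratios were chosen after seeing the data. The difference in the share of members' reads that lay in the region nearest the TSS, 0.501 percentage points, ranged from 0.231 to 0.869 without 1 library. It was -0.286 with genes of 4 or more regions and -0.512 with the region of most reads in place of the nearest. The difference in the members' share of all reads, -0.101 percentage points, ranged from -0.134 to -0.0846 without 1 library and was 0.00147 with genes of 4 or more regions. The cause of these reversals was not tested. No paired analysis was possible because the columns carry a group and a running number, not the replicate numbers of the labels. Depth limits the weak regions most: 329 of 706 held under 25 reads per library, and counting error alone is then large.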
